A study of Homo sapiens with 4 samples.

Results

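The cells described here are single S-phase cells with at least 1 long stretch of the genome that was treated as having no replication call. They were chosen from a table of state codes, 1 code (0, 1 or 2) per cell and bin of 80 kb. Bins coded 0 in over 50% of the HCT116 cells were left out, and a cell was taken as a with-run cell if 50 or more consecutive kept bins (4 Mb) of one chromosome were coded 0. There were 291 with-run cells among 529 cells: 161 of 207 in DKO1 and 130 of 322 in HCT116. The other 46 DKO1 and 192 HCT116 cells are called run-free. Code 0 chose the members, so all values of code 0 below are descriptions.

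HCT116 is an established human colorectal cancer line. DKO1 is its derivative with knockout of DNMT1 and DNMT3B. DNMT1 restores DNA methylation after replication, and DNMT3B adds methyl groups to DNA that carries none. How much of these enzymes DKO1 still makes was not measured here. Both lines were grown in McCoy's 5A modified medium with foetal bovine serum. Cells were sorted on their DNA content, and the early, mid and late S fractions of a line were pooled in equal number for a droplet copy-number assay. Each line had 1 S-phase library, and the libraries shared 0 cell barcodes. The G1 libraries were not analysed here. Because cells of 1 library are not replicates, no comparison was tested and no p-value is given. Intervals are exact binomial (Clopper-Pearson) 95% intervals and cover counting error of cells only. The read depth per cell is unknown.

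In S phase, gene-rich DNA is copied early and gene-poor DNA late, in an order that most cells of a line share. A stretch that has been copied holds more DNA than one that has not, and this difference in copy number is what the assay reads. The meaning of the codes is not given in the table. Replicated DNA was taken to be code 2 and unreplicated DNA code 1, since the gene-rich chromosomes 22, 17 and 19 had the highest percent of code 2 of the chromosomes with at least 100 kept bins. In run-free cells of DKO1 it was 83.4, 74.1 and 71.8% on these 3 chromosomes, against 34.7% on chromosome 4. Code 0 was treated as not called. The reading of codes 1 and 2 rests on run-free cells. Whether it holds on chromosomes that carry a long run was not tested. A cell's progress through S phase is the percent of code 2 among its bins of code 1 or 2.

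Long uncalled runs were more frequent in DKO1 than in HCT116. They occurred in 77.8% of DKO1 cells (interval 71.5 to 83.2%) and in 40.4% of HCT116 cells (35.0 to 46.0%). With runs ended at every missing bin, the counts were 159 and 121 cells. Nearly all of the code 0 of a line lay in these cells: 99.6% in DKO1 and 95.4% in HCT116. Code 0 took 3.32% of the kept bins in with-run DKO1 cells and 0.0447% in run-free DKO1 cells. In HCT116 it took 2.03% in with-run cells and 0.0659% in run-free cells. No code 0 at all was found in 26 of the 46 run-free DKO1 cells and in 34 of the 192 run-free HCT116 cells. The shortest longest runs among with-run cells were 50 and 51 bins in DKO1 and 50 and 50 bins in HCT116. Just outside the limit lay run-free cells with 48 and 42 bins in DKO1 and 48 and 48 bins in HCT116.

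The share of with-run cells was similar along S phase in DKO1. It was 73.8% of 42 cells at 30 to 40% progress, 76.8% of 56 cells at 40 to 50%, 79.6% of 49 cells at 50 to 60% and 76.9% of 39 cells at 60 to 70%. In HCT116 the shares in these strata were 46.9% of 49 cells, 49.2% of 61 cells, 37.5% of 80 cells and 34.6% of 81 cells, and at 70 to 80% progress 15.4% of 13 cells (1.92 to 45.4%). The intervals of neighbouring strata overlapped in both lines. With-run DKO1 cells had a median progress of 47.7% and run-free DKO1 cells 48.6%. With-run HCT116 cells had 48.1% and run-free HCT116 cells 52.8%.

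**Figure D1:**
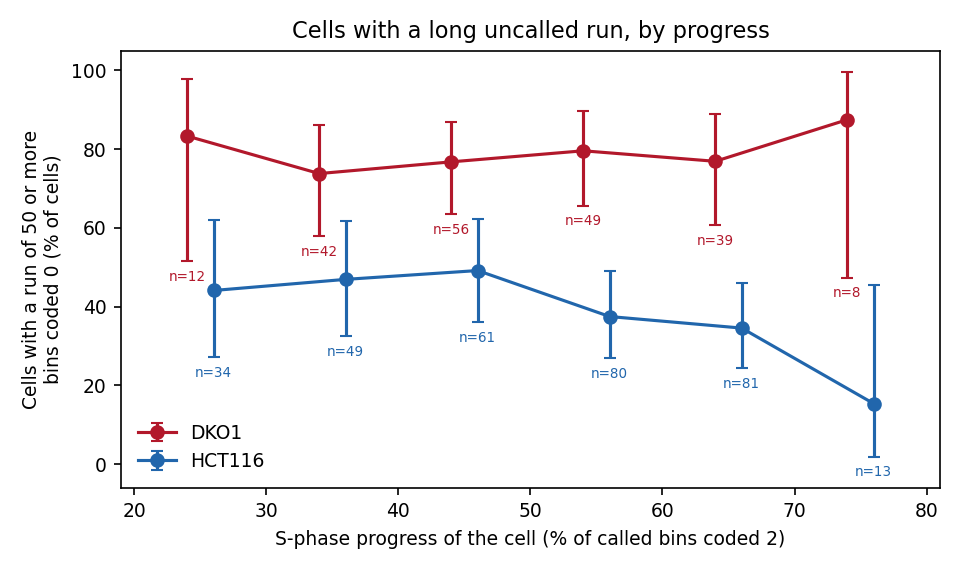
Percent of cells with a run of 50 or more uncalled bins (vertical axis) in 10-point strata of S-phase progress (horizontal axis), for DKO1 (red) and HCT116 (blue). Bars are exact 95% intervals and n is the number of cells in the stratum. DKO1 stays between 73.8 and 87.5%, and HCT116 lies lower in every stratum drawn.

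With-run cells of DKO1 also held more runs and more run-covered DNA. A with-run cell had a median of 4 runs in DKO1 (quartiles 2 and 7, highest 27) and 2 in HCT116 (1 and 5, highest 18). The runs of a cell summed to a median of 37.0 Mb in DKO1 (quartiles 20.2 and 67.6 Mb) and 18.8 Mb in HCT116 (7.72 and 38.4 Mb), or 1.67 and 0.848% of the kept bins. Single runs were of similar length in both lines, with medians of 7.04 Mb among 839 DKO1 runs and 6.56 Mb among 429 HCT116 runs. Run lengths in Mb count kept bins only. Missing bins were bridged by 440 DKO1 and 228 HCT116 runs, which therefore span more of the genome than their length. The lines differed more in how many chromosomes of a cell were involved. Runs lay on 1 chromosome in 53 DKO1 cells, on 2 in 39 and on 3 or more in 69. In HCT116 these numbers were 95, 24 and 11 cells.

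The cell with the most covered DNA was a DKO1 cell at 59.9% progress, in which 15 runs on chromosomes 2, 3, 4, 7, 20 and 21 covered 329.4 Mb (14.9% of the kept bins). A DKO1 cell at 30.1% progress had 21 runs on chromosomes 2, 3, 4, 5, 6, 7 and 13 (262.4 Mb). A DKO1 cell at 40.7% had 27 runs on chromosomes 1, 2, 4 and 11 (222.2 Mb). In HCT116 the highest sums were 243.4, 182.7 and 135.04 Mb, in cells with 17, 18 and 10 runs on 5, 6 and 2 chromosomes. In these 6 cells the long runs lay on 2 to 7 chromosomes, and the other chromosomes of the cell had none.

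The longest runs covered large parts of a chromosome. In DKO1 the longest ran on chromosome 4 from 32560001 to 191040000 (1620 kept bins), the last bin of that chromosome in the table. The next ran on chromosome 4 from 56720001 to 191040000 (1363 bins), on chromosome 5 from 76400001 to 180880000 (1247 bins), on chromosome 1 from 800001 to 107600000 (1231 bins) and on chromosome 3 from 100800001 to 196960000 (1137 bins). All 5 reached the first or last bin of their chromosome. In HCT116 the longest ran on chromosome 2 from 105520001 to 220960000 (1335 bins), on chromosome 3 from 102960001 to 196960000 (1111 bins), on chromosome 2 from 163520001 to 243120000 (719 bins), on chromosome 14 from 46320001 to 107280000 (709 bins) and on chromosome 4 from 73360001 to 133120000 (692 bins). Of these, the runs on chromosome 3, on chromosome 14 and the second one on chromosome 2 reached the last bin. Coordinates are those of the deposited table, for which the submitters' processing notes name hg19 and GRCh37.

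Most runs lay inside chromosomes. The first bin of a chromosome was part of 29 DKO1 and 9 HCT116 runs, and the last bin of 67 and 21. Bins within 5 Mb of either end made up 7.13% of the kept bins. They made up 5.93% of the run-covered bins in DKO1 and 5.71% in HCT116. Few runs had both ends in common: the 839 DKO1 runs had 833 distinct pairs of ends, and the 429 HCT116 runs had 428. Single ends recurred more often. Of the starts inside a chromosome, 14.9% of 810 in DKO1 and 11.7% of 420 in HCT116 were the start of more than 1 run, up to 6 runs in DKO1 and 3 in HCT116. Of the ends inside a chromosome, 14.5% of 772 and 13.7% of 408 were shared in this way. Together the runs touched 86.6% of the kept bins in DKO1 and 63.0% in HCT116.

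Chromosome 13, which is gene-poor and replicates late, carried a run in more cells per kept bin than any other chromosome in both lines. In DKO1, 35 cells (16.9%, interval 12.1 to 22.7%) had a run on it, or 30.3 cells per 1000 kept bins. In HCT116, 23 cells (7.14%, 4.58 to 10.5%) did, or 19.9 per 1000 bins. The next in DKO1 were chromosome 19 with 22.3 cells per 1000 bins (13 cells), chromosome 14 with 21.5 (22 cells), chromosome 3 with 21.4 (44 cells) and chromosome 4 with 20.6 (41 cells). In HCT116 the next were chromosome 18 with 16.7 (12 cells), chromosome 21 with 12.4 (5 cells), chromosome 4 with 11.1 (22 cells) and chromosome 16 with 10.1 (7 cells). Chromosomes 13 and 4 were thus among the 5 highest in both lines. Chromosome 8 had 11 kept bins and could hold no run.

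Chromosomes 3 and 19 carried a run in few HCT116 cells. A run on chromosome 3 was found in 44 DKO1 cells (21.3%, 15.9 to 27.5%) and 6 HCT116 cells (1.86%, 0.687 to 4.01%). A run on chromosome 19 was found in 13 DKO1 cells (6.28%, 3.39 to 10.5%) and 1 HCT116 cell (0.311%, 0.00786 to 1.72%). On chromosome 18 the shares lay close, with 8 DKO1 cells (3.86%, 1.68 to 7.47%) and 12 HCT116 cells (3.73%, 1.94 to 6.42%). With 1 library per line, these gaps describe the libraries.

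**Figure D2:**
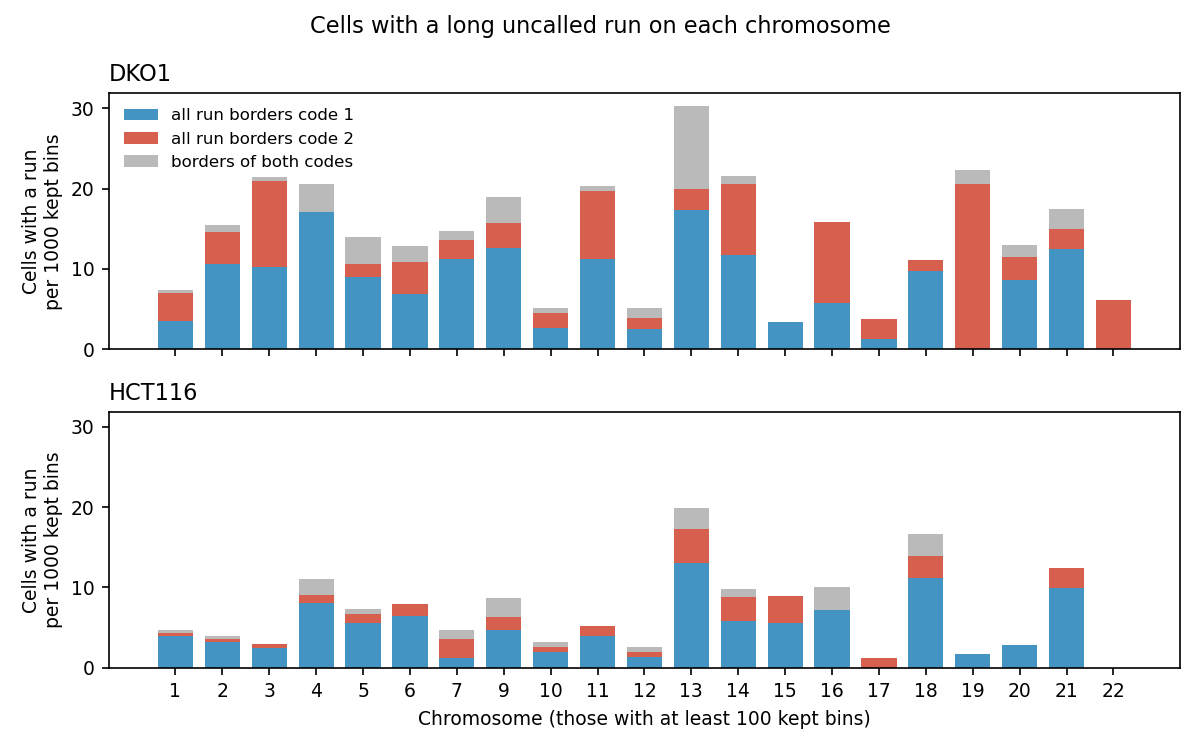
Number of cells with a long uncalled run on a chromosome per 1000 kept bins of it (vertical axis), by chromosome (horizontal axis), in DKO1 (upper panel) and HCT116 (lower panel). Colours give the code next to the ends of all runs of that chromosome in the cell. Chromosome 13 is highest in both panels, and chromosome 19 in DKO1 consists almost wholly of runs next to code 2.

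By position, the most covered region of DKO1 lay on chromosome 4 from 175440001 to 183440000, where up to 29 of 207 cells (14.0%, 9.59 to 19.5%) had a run. At that peak 13 of 322 HCT116 cells (4.04%) had one. In run-free DKO1 cells the region was replicated in 5.44% of cells on average, so it is late. Next came chromosome 13 from 85280001 to 94960000 and from 103760001 to 107920000, each with up to 24 DKO1 cells (11.6%). These were replicated in 12.04 and 6.72% of run-free DKO1 cells. Chromosome 4 from 162000001 to 165920000 had up to 20 DKO1 cells and from 133120001 to 139520000 up to 18. The other 5 regions ranked in DKO1 were pieces of chromosomes 4 and 13 next to these, with 18 to 23 cells.

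The same chromosomes led in HCT116. The peak lay on chromosome 13 from 103840001 to 109440000 with 18 of 322 cells (5.59%, 3.35 to 8.69%), a region replicated in 4.30% of run-free HCT116 cells. At that peak 24 of 207 DKO1 cells (11.6%) had a run. Chromosome 4 from 178720001 to 183120000 had 14 cells and from 174560001 to 178720000 12 cells, and chromosome 13 from 87600001 to 94880000 12 cells. Chromosome 13 from 48560001 to 53440000, with 11 cells, was unlike the others: it was replicated in 74.8% of run-free HCT116 cells. The remaining 5 regions lay on chromosomes 4 and 13, with 11 to 14 cells.

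The bin next to the end of a run was coded 1 at 69.8% of the 1582 run ends that lay inside a chromosome in DKO1 and at 76.7% of 828 in HCT116. It was coded 2 at the other 30.2 and 23.3%. Both ends of a run mostly had the same code. In DKO1, 500 runs (59.6%) had code 1 on both sides, 203 runs (24.2%) code 2 on both sides, and 40 runs (4.77%) one of each. In HCT116 these were 295 (68.8%), 83 (19.3%) and 21 runs (4.90%). The other runs reached the first or last bin of a chromosome. The split by the code next to the run was made after seeing the data.

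Runs next to code 1 and runs next to code 2 lay in opposite parts of the replication order. This was read from the run-free cells of the same line and the same 10-point stratum of progress, whose states did not choose the runs. The bins of DKO1 runs with code 1 on both sides were replicated in 20.8% of run-free cells (SD 14.4 over 424 runs), and the 10 bins on either side in 55.3% (SD 24.5). The bins of DKO1 runs with code 2 on both sides were replicated in 85.2% of run-free cells (SD 19.7 over 171 runs), and the bins on either side in 44.9% (SD 26.4). In HCT116 the runs next to code 1 were replicated in 15.1% of run-free cells (SD 10.4 over 280 runs), and the bins beside them in 63.5% (SD 23.4). HCT116 runs next to code 2 were replicated in 85.6% (SD 15.7 over 83 runs), and the bins beside them in 41.6% (SD 20.5). Over all bins of the matching strata the mean was 46.5 to 55.5%.

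Single runs followed these means with few exceptions. Of the runs next to code 1, 387 of 424 in DKO1 and 270 of 280 in HCT116 were replicated in fewer run-free cells than the bins beside them. Of the runs next to code 2, 164 of 171 in DKO1 and 81 of 83 in HCT116 were replicated in more run-free cells than the bins beside them. Pooled without regard to border, run bins were replicated in 38.7% of run-free DKO1 cells and 30.8% of run-free HCT116 cells, on average 10.5 and 17.2 points below all bins. The pooled value joins both kinds of run: 40.4% of DKO1 and 56.4% of HCT116 runs were replicated in under 20% of run-free cells, and 20.6 and 16.5% in over 80%.

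The states beside the runs in the with-run cells were nearly all the code of the border. Of the called bins among the 10 on either side, 2.18% were coded 2 in DKO1 cells and 1.70% in HCT116 cells at runs next to code 1. At runs next to code 2 it was 97.7% in DKO1 and 97.9% in HCT116. These shares are in part fixed by the grouping, since states persist from bin to bin and the border bin had the named code. A comparison added after seeing the data therefore used run-free cells of the same stratum with the same code at the bin that touches the run (a median of 8 and 7 cells per run end in DKO1 for code 1 and code 2, and 19 and 26.5 in HCT116).

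At run ends next to code 1, the 2nd to 10th bin outside were coded 2 in 2.83% in with-run DKO1 cells and 38.7% in these run-free DKO1 cells (841 run ends). The HCT116 values were 2.264% in with-run cells and 53.7% in run-free cells (584 run ends). At run ends next to code 2, these bins were coded 2 in 96.95% in with-run DKO1 cells and 59.6% in run-free DKO1 cells (340 run ends). The HCT116 values were 97.2% in with-run cells and 52.4% in run-free cells (176 run ends). The differences were thus 35.9, 51.5, 37.4 and 44.8 points in size. At the 25th bin, where called, the with-run cells had 9.51% in DKO1 and 9.12% in HCT116 at ends next to code 1, and the run-free cells 60.2 and 71.05%. Run ends of one cell are not independent, and no test was made.

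**Figure D3:**
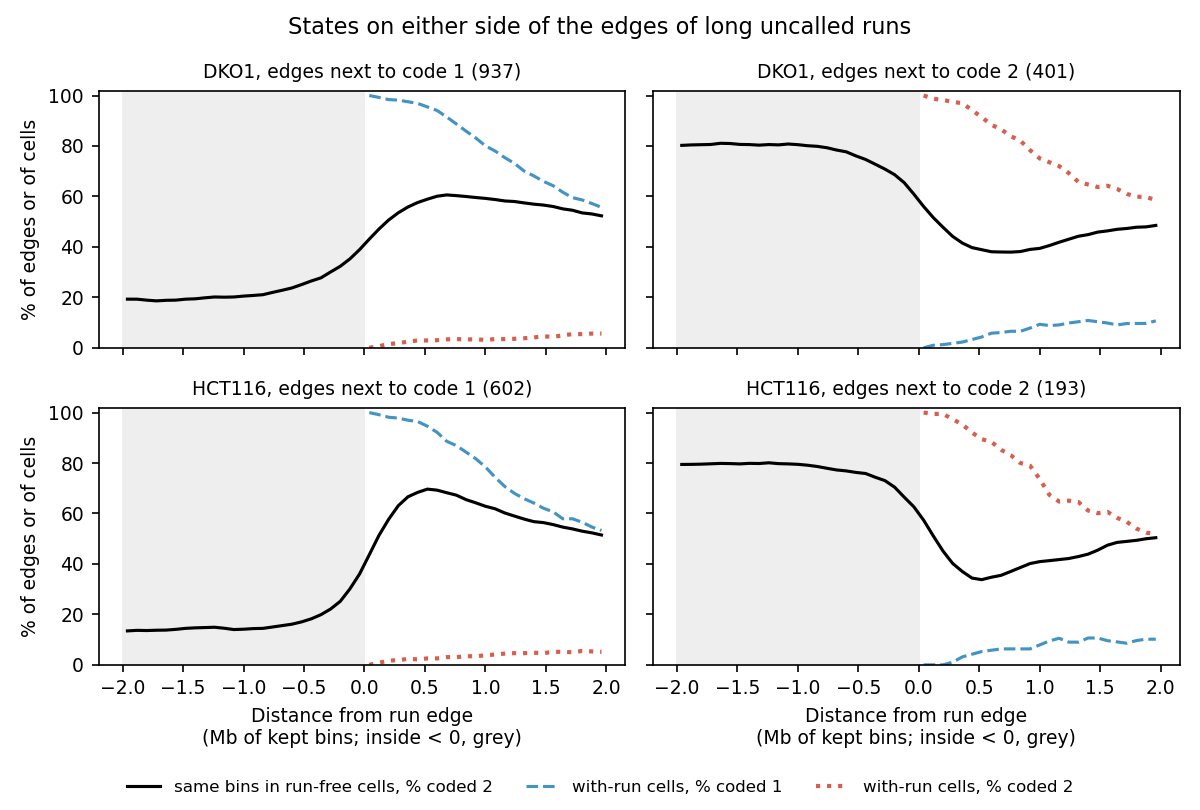
Percent (vertical axis) by distance from the end of a long uncalled run in Mb of kept bins (horizontal axis; the run is on the left, grey), for run ends next to code 1 (left panels) and code 2 (right panels) in DKO1 and HCT116. Black lines give the percent of run-free cells in which the same bins were coded 2, and broken and dotted lines the percent of with-run cells with code 1 and code 2 outside the run. At run ends next to code 1, bins change from late inside (22.0% in DKO1, 10 bins in) to mostly replicated outside (60.1%, 8th bin out), and at ends next to code 2 the other way (79.3 and 38.1%).

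Along the chromosome these runs sat in long stretches without the opposite code. Around DKO1 runs with code 1 on both sides, the stretch with no bin coded 2 had a median length of 34.1 kept Mb (quartiles 23.4 and 57.7 Mb, 212 stretches). In HCT116 it was 34.8 Mb (21.3 and 56.4 Mb, 134 stretches). More than 1 long run lay in 122 of the 212 DKO1 and 71 of the 134 HCT116 stretches, and 93 and 74 reached the last bin of the chromosome. In these stretches the bins coded 1 were replicated in 65.1% of run-free DKO1 cells and 73.9% of run-free HCT116 cells, and the bins coded 0 in 24.9 and 17.6%. So code 0 covered the late bins of the stretch and code 1 the early ones.

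Around runs with code 2 on both sides, the stretch with no bin coded 1 had a median length of 23 Mb in DKO1 (118 stretches) and 20.2 Mb in HCT116 (51 stretches). Here the bins coded 2 were replicated in 39.5% of run-free DKO1 cells and 36.7% of run-free HCT116 cells, and the bins coded 0 in 81.3 and 79.7%. In these stretches code 0 covered the early bins and code 2 the late ones. Where a chromosome of a cell held several runs next to code 1 only, the bins between the runs were coded 1 in 70.6% in DKO1 (104 chromosomes of cells) and 69.5% in HCT116 (56). Where the runs were next to code 2 only, the bins between them were coded 2 in 70.7% in DKO1 (41 chromosomes of cells) and 71.4% in HCT116 (19). Here code 0 took 21.9% in DKO1 and 21.1% in HCT116, and code 1 took 7.35 and 7.48%.

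Runs of one chromosome in a cell mostly had the same border code. Of chromosomes with 2 or more runs that each had 1 code beside them, 9 of 193 in DKO1 cells (4.66%, 2.15 to 8.67%) and 3 of 91 in HCT116 cells (3.30%, 0.685 to 9.33%) held both kinds. These intervals count chromosomes of cells as if independent, though a cell can give several. Counting the borders of all runs, single runs included, of the 402 run-carrying chromosomes of DKO1 cells, 239 (59.5%) had only code 1 next to their runs, 116 (28.9%) only code 2 and 47 (11.7%) both. Of the 184 in HCT116, 127 (69.0%) had only code 1, 35 (19.02%) only code 2 and 22 (11.96%) both. Over all chromosomes, both border codes were found in 61 of 161 with-run DKO1 cells and 31 of 130 with-run HCT116 cells. The kinds differed by chromosome. Chromosome 4 of DKO1 had 34 cells with code 1 only and 0 with code 2 only. Chromosome 19 of DKO1 had 0 cells with code 1 only and 12 with code 2 only. On chromosome 3 of DKO1 the numbers were 21 and 22.

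**Figure D4:**
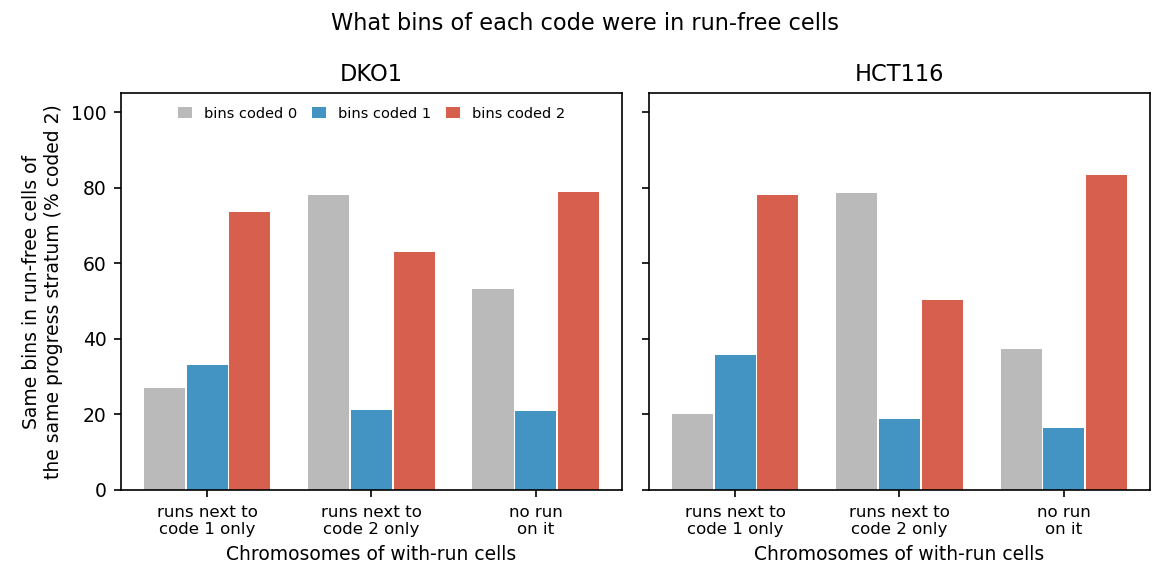
Percent of run-free cells, in the same stratum of progress, in which bins of each code were coded 2 (vertical axis), for chromosomes of with-run cells whose runs lie next to code 1 only, next to code 2 only, or that hold no run (horizontal axis), in DKO1 (left) and HCT116 (right). Grey, blue and red bars are bins coded 0, 1 and 2 in the with-run cells. Grey bars are low (27.0% in DKO1) in the first group and high (78.2% in DKO1) in the second.

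The regions of DKO1 most covered by runs next to code 2 were early DNA. The first lay on chromosome 3 from 46320001 to 53520000, covered by such runs in 15 of 207 DKO1 cells (7.25%, 4.11 to 11.7%). At its peak 0 of 322 HCT116 cells had a long run of any kind, which allows a share of up to 0.932% (3 cells of the total; the exact interval reaches 1.14%). It was replicated in 98.7% of run-free DKO1 cells. The next lay on chromosome 11 from 63120001 to 70240000 and from 71440001 to 75760000, each with 12 DKO1 cells. In HCT116 the first lay on chromosome 13 from 48720001 to 52960000 with 7 of 322 cells (2.17%, 0.878 to 4.43%), replicated in 76.6% of run-free HCT116 cells. The next regions of HCT116, on either side of it with 5 cells each, were replicated in 36.6 and 54.7%.

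Chromosome 19 of DKO1 held 13 runs in 13 cells, and most began or ended near one another. There were 8 runs that lay between 4560001, the first bin of the chromosome in the table, and 13920000. Of these, 5 began at 4560001 and 5 ended at 13920000, and 3 had both ends in common. A further 4 lay between 32160001 and 52160000, and 1 ran from 15120001 to 20160000. The last of these had code 1 on one side, and the other 12 had code 2 on one or both sides and no code 1. Those 12 came from cells at 34.1 to 68.0% progress. Their bins were replicated in 82.7 to 99.9% of run-free DKO1 cells. The single run on chromosome 19 of HCT116, from 20080001 to 32480000, lay next to code 1 and in bins replicated in 11.98% of run-free HCT116 cells.

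The rest of a run-carrying chromosome, beyond the runs and 10 bins on either side, was also shifted in its codes. Where the runs were next to code 1 only, it was coded 2 in 37.1% of called bins in DKO1 with-run cells (SD 16.4 over 201 chromosomes of cells), against 49.4% (SD 15.2) of the same bins in run-free cells. In HCT116 it was 33.7% in with-run cells (SD 18.2 over 121), against 53.1% (SD 18.4) in run-free cells. Of these, 159 of 201 in DKO1 and 98 of 121 in HCT116 lay below the run-free cells. Where the runs were next to code 2 only, the rest was coded 2 in 61.6% in DKO1 with-run cells (SD 13.7 over 104), against 48.0% (SD 12.2) in run-free cells. In HCT116 it was 69.5% (SD 22.2 over 35), against 36.2% (SD 15.8). Of these, 94 of 104 in DKO1 and 31 of 35 in HCT116 lay above the run-free cells. Against run-free cells with the same code at the bin that touches the run, the differences for code 1 were -12.1 points in DKO1 and -18.95 points in HCT116. For code 2 they were 13.7 points in DKO1 and 35.1 points in HCT116. Taken over all run-carrying chromosomes the differences from all run-free cells were -3.07 points in DKO1 and -6.73 points in HCT116, means over kinds of opposite sign. In the stretches around such runs, code 1 lay on the early bins and code 2 on the late ones. Whether the shift in code is a shift in replicated DNA was not tested.

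Chromosomes counted as outlying were concentrated among run-carrying ones. A chromosome was counted as outlying when its replicated share departed by over 15 points from that chromosome's relation to progress in the line. In DKO1 this held for 25.9% of 402 run-carrying chromosomes of cells, 2.95% of 2979 other chromosomes of with-run cells and 0.828% of 966 chromosomes of run-free cells. In HCT116 it held for 33.7% of 184, 0.982% of 2546 and 0.546% of 4032. The share rests on called bins, so the bins of long runs are missing from it on run-carrying chromosomes. Many of these bins were early or late DNA, and their loss alone can move the share. The higher percents of run-carrying chromosomes can thus in part be set by the runs that chose the group. How large this part is was not tested.

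The next comparison asked whether with-run cells kept the replication order elsewhere. Each cell was read outside its own runs and the 10 bins on either side. With-run and run-free cells of a line were compared in 10-point strata of progress with at least 5 cells of both, weighted equally. These were 30 to 70% in DKO1 (143 with-run and 43 run-free cells) and 20 to 70% in HCT116 (126 and 179). The order was largely shared. Across 27643 bins, which are not independent, the percent of cells that had replicated a bin correlated between with-run and run-free cells with Pearson's r of 0.982 in DKO1 and 0.994 in HCT116. The median absolute difference was 4.56 points in DKO1 and 2.42 points in HCT116. The run-free DKO1 group is the smallest, so its shares have the largest counting error.

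With-run cells had more late bins and fewer early bins coded 2, which is read as replicated below. Run-carrying chromosomes enter these values unless left out, and whether code 2 is replicated DNA on them was not tested. Without them, the late difference of HCT116 was only 0.246 points. Bins were put in an early, a middle and a late class of equal size by the shares of the run-free cells of both lines. Late bins were replicated in 12.3% of with-run DKO1 cells and 7.26% of run-free DKO1 cells, 5.04 points more. Early bins were replicated in 89.0% of with-run and 92.8% of run-free DKO1 cells, a difference of -3.84 points. In HCT116 late bins were replicated in 6.20% of with-run and 4.78% of run-free cells (1.42 points), and early bins in 87.0 and 89.7% (-2.76 points). The middle class differed by -0.77 points in DKO1 and -0.99 in HCT116. Because the run-free cells set the classes, their own early and late shares lie further apart in part by construction. With classes set by all cells, the late difference was 4.48 points in DKO1 and 1.33 points in HCT116. The early difference was then -3.47 points in DKO1 and -2.62 points in HCT116. With all run-carrying chromosomes left out and progress taken from the others, the late difference was 3.15 points in DKO1 and 0.246 points in HCT116, and the early difference -2.49 and -1.63 points. Outlying chromosomes were also more frequent among the remaining chromosomes of with-run cells (2.95 and 0.982%) than in run-free cells (0.828 and 0.546%) in DKO1 and HCT116. Their part in the differences of early and late bins was not tested.

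Single with-run cells departed more from the run-free order. For each cell, the called bins were ranked by the order of the run-free cells of its line, without the cell itself, and the percent of bins whose state differed from that order was counted. It was 17.3% on average in with-run DKO1 cells (SD 3.98, 143 cells) and 14.0% in run-free DKO1 cells (SD 2.77, 43 cells). In with-run DKO1 cells of the strata it ran from 11.1 to 31.5% with a median of 16.5%. In run-free DKO1 cells of the strata it ran from 10.9 to 21.8% with a median of 13.03%. A run-free DKO1 cell outside the strata, at 73.6% progress, had 22.8%. The groups overlapped over most of their range. The gap of 3.26 points was smaller than the SD over with-run cells and larger than the SD over run-free cells. Above the stratum's run-free median lay 27 of 31 with-run cells at 30 to 40% progress and 32 of 43 at 40 to 50%. At 50 to 60% it was 38 of 39 cells, and at 60 to 70% 28 of 30.

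In HCT116 the out-of-order percent was 12.6% in with-run cells (SD 2.72, 126 cells) and 11.1% in run-free cells (SD 1.38, 179 cells). In these strata with-run cells ran from 9.34 to 25.2% and run-free cells from 8.30 to 15.7%. Only the highest with-run cells thus lay outside this run-free range. A run-free HCT116 cell outside the strata, at 76.5% progress, had 21.6%. Above the stratum's run-free median lay 6 of 15 with-run cells at 20 to 30% progress and 18 of 23 at 30 to 40%. At 40 to 50% it was 25 of 30 cells, at 50 to 60% 25 of 30, and at 60 to 70% 19 of 28. The gap was positive in all 4 strata of DKO1, from 1.62 points at 40 to 50% progress to 4.69 points at 50 to 60%. In HCT116 it was positive in 4 of 5 strata, up to 3.36 points at 50 to 60% progress, and -0.26 points at 20 to 30%. With run-carrying chromosomes left out the gap was 1.90 points in DKO1 and 0.639 points in HCT116. With outlying chromosomes left out it was 2.25 and 0.829 points.

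The departure was larger in cells with runs on more chromosomes. In DKO1 the median out-of-order percent was 13.03% in 43 run-free cells, 14.6% in 50 cells with runs on 1 chromosome, 15.4% in 35 cells with runs on 2 and 18.8% in 58 cells with runs on 3 or more. In HCT116 these medians were 10.8% (179 cells), 11.9% (92 cells), 12.4% (24 cells) and 17.9% (10 cells). With the run-carrying chromosomes left out they were 13.03, 14.1, 14.7 and 17.0% in DKO1 and 10.8, 11.2, 11.5 and 12.5% in HCT116. Within with-run cells, Spearman's rho between the run-covered bins and the out-of-order percent was 0.453 over 161 DKO1 cells and 0.283 over 130 HCT116 cells. The cells share a library and an order, so rho is a description.

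**Figure D5:**
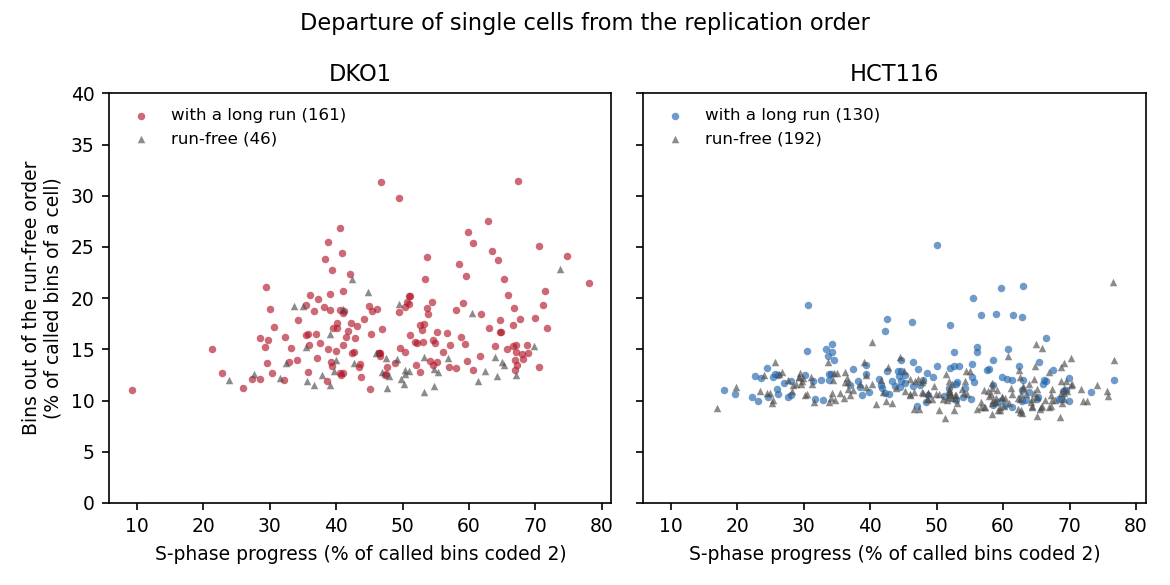
Percent of the called bins of a cell whose state differed from the order of the run-free cells (vertical axis) against the S-phase progress of the cell (horizontal axis), in DKO1 (left) and HCT116 (right). Each point is a cell, with-run cells as coloured circles and run-free cells as grey triangles. The groups overlap over most of their range, and the highest with-run cells reach 31.5% in DKO1 and 25.2% in HCT116.

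With-run cells also differed more from each other. Among cells of 40 to 60% progress, pairs no more than 5 points apart differed in 23.8% of bins among with-run DKO1 cells (82 cells, 1354 pairs) and in 19.2% among run-free DKO1 cells (23 cells, 130 pairs). In HCT116 they differed in 18.9% among with-run cells (60 cells, 773 pairs) and in 15.3% among run-free cells (81 cells, 1427 pairs). Without run-carrying chromosomes the with-run values were 22.2% in DKO1 and 17.1% in HCT116. The state switched along the genome 39.96 times per 1000 called bins in with-run DKO1 cells (SD 8.78) and 42.5 times in run-free DKO1 cells (SD 4.70). In HCT116 it switched 45.9 times (SD 7.68) in with-run and 48.0 times (SD 5.63) in run-free cells. The gaps in switching, -2.53 and -2.11, were smaller than the SD over cells.

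Code 0 outside the long runs was also more frequent in with-run cells. It took 0.952% of the remaining bins in with-run DKO1 cells (SD 0.831) and 0.0465% in run-free DKO1 cells (SD 0.110). In HCT116 it took 0.620% in with-run cells (SD 0.792) and 0.0517% in run-free cells (SD 0.136). The with-run medians were 0.781% in DKO1 and 0.416% in HCT116. Uncalled bins thus came in shorter runs in the same cells.

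Few bins differed strongly between with-run and run-free cells at matched progress. By a limit of 15 points, 817 bins were higher (2.96% of 27643) and 579 lower (2.09%) in with-run DKO1 cells. In HCT116, 5 bins were higher (0.0181%) and 74 lower (0.268%) in with-run cells. With run-carrying chromosomes left out, 494 bins were higher and 718 lower in with-run DKO1 cells, so the balance turned. HCT116 then had 4 higher and 87 lower. The smaller run-free group of DKO1 makes large differences by counting error more likely there. These bins formed 51 higher and 30 lower regions of at least 5 kept bins in DKO1, and 1 lower region in HCT116.

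The longest region higher in with-run DKO1 cells lay on chromosome 5 from 135120001 to 136880000, replicated in 45.8% of with-run and 19.8% of run-free cells. Most of it was replicated in 55 of 141 with-run cells (39.0%, 30.9 to 47.6%) and in 4 of 43 run-free cells (9.30%, 2.59 to 22.1%). In HCT116 the same region was replicated in 16.6% of with-run and 15.03% of run-free cells. Next came chromosome 2 from 30080001 to 31600000 (44.9% of with-run and 24.6% of run-free DKO1 cells). On chromosome 11 there were regions from 127600001 to 129040000 (25.4 and 5.62%), from 112800001 to 114160000 (37.0 and 14.0%) and from 133360001 to 134640000 (55.2 and 34.1%). With run-carrying chromosomes left out, the difference of the first of these on chromosome 11 was 12.7 points, below the limit, in place of 19.8. The other 4 regions stayed above 15 points, at 15.9 to 26.9. In HCT116 the differences of the 5 regions were -0.86 to 4.74 points.

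The longest region lower in with-run DKO1 cells lay on chromosome 6 from 130880001 to 131920000 (47.4% of with-run and 67.9% of run-free cells). Chromosome 5 held the next, from 31440001 to 32240000 (66.4% of with-run and 85.9% of run-free cells) and from 126480001 to 127280000 (35.3 and 54.8%). Chromosome 4 followed, from 187360001 to 188160000 (37.1 and 59.2%), and then chromosome 1, from 117680001 to 118320000 (73.3 and 91.0%). The region on chromosome 4 was lower in with-run cells of HCT116 too, with 65.1% of with-run and 82.1% of run-free cells. The other 4 lower regions of DKO1 differed by -3.90 to -0.17 points in HCT116. The region of HCT116 lay on chromosome 5 from 114400001 to 114880000 (61.1% of with-run and 81.4% of run-free cells). All these regions were picked by their difference in these cells, so their differences are larger than those of unpicked regions.

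DKO1 and HCT116 were set side by side within each kind of cell, in the 4 strata from 30 to 70% progress. Among run-free cells, late bins were replicated in 7.26% of DKO1 cells (43 cells) and 5.83% of HCT116 cells (160 cells), a difference of 1.43 points. Among with-run cells it was 12.3% in DKO1 (143 cells) and 7.60% in HCT116 (111 cells), 4.70 points. Over all cells the difference was 4.61 points. Run-carrying chromosomes were kept in all values of this comparison. They were more frequent in DKO1 (402 in 207 cells) than in HCT116 (184 in 322 cells). With them left out, late bins were coded 2 in 10.4% of with-run DKO1 cells. The difference between the lines without them was not computed. Early bins differed by -1.78 points among run-free cells, -3.17 points among with-run cells and -3.67 points over all cells. With bin classes set by all cells, the late difference was 1.85 points among run-free and 4.66 points among with-run cells.

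The out-of-order percent among run-free cells was 14.0% in DKO1 and 11.0% in HCT116, a gap of 3.05 points, and among with-run cells 17.3 and 12.9%, a gap of 4.41 points. The order came from 46 run-free cells in DKO1 and 192 in HCT116. Against the order of the other line the gaps were 2.03 points among run-free and 3.65 points among with-run cells. Run-carrying chromosomes were kept in these gaps too. Whether the gap between the lines differs between run-free and with-run cells was not tested.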

How the data were processed

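The authors deposited 1 table of state codes, a score of 0, 1 or 2 per cell and 80 kb bin, in which columns are single S-phase cells and carry the line in their header. SAMtools 1.10, bedtools 2.26.0 and Cell Ranger are listed in the submitters' processing notes. How the states were modelled and filtered, and how many reads a cell had, is not given in the sources used here. Of 27704 bins on 22 autosomes, 61 were left out and 27643 (2211 Mb) kept. Runs were counted over kept bins and bridged the 378 gaps between them; ending runs at gaps was an alternative. Strata, flanks and pair limits are given with the results.

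Regions, chromosomes and cells were named by rank on a stated measure: cells with a run per 1000 bins, covered cells per bin with neighbours of at least 80% of the peak, run length, and length of differing regions. The members and lists were chosen with earlier results of these data known. Functions were tested on simulated cells. Python 3.11.15, numpy 2.4.6, pandas 2.3.3 and SciPy 1.17.1 were used. No annotation of the table's build was used, so regions carry no gene names.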

Additional observations from a re-analysis of the deposited data

How the results depend on the processing

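The 28 values were recomputed under 14 alternatives, not every value under each, which gave 182 values. All kept their direction, 157 lay within 1.5 times the reported value (for shares of cells, within its interval), and 25 moved further. Of the 157, 32 equal the reported value because 2 alternatives (bins uncalled in over 50% of either line left out, and strata with at least 3 cells) changed no bin or stratum used, so they bear on nothing. With runs of 25 bins or more, with-run cells were 47.8% of HCT116, pair discordance in DKO1 differed by 2.997 points, switches in HCT116 by -1.39, and code 0 outside runs by 0.376 points in DKO1 and 0.270 in HCT116. With runs of 100 bins or more, with-run cells were 61.8% of DKO1 and 20.8% of HCT116, the rest of the chromosome differed by -6.03 points in DKO1, switches by -3.98 in DKO1, late bins by 2.15 points in HCT116 and code 0 outside runs by 1.14 points in HCT116. With outlying chromosomes left out, the out-of-order gap of HCT116 was 0.829 points. With cells paired by progress, HCT116 early bins differed by -1.44 points and late bins by 2.45. With with-run cells of 1 run only, the out-of-order gap was 1.77 points in DKO1 and 0.756 in HCT116. Leaving out run-carrying chromosomes, chosen after seeing the data, gave early differences of -2.49 points in DKO1 and -1.63 in HCT116, late differences of 3.15 and 0.246, out-of-order gaps of 1.90 and 0.639, pair gaps of 3.03 and 1.81 and a switching gap of -1.54 in DKO1. Run length and the limit to cells of 1 run change which cells and bins enter. The cause of these and the other changes was not tested. The gap between run bins and the bins beside them was recomputed only under some alternatives. These were runs of 25 or 100 bins, runs ended at missing bins, and the filter on either line, which changed nothing. There it was -50.3 to -32.2 points for runs next to code 1 and 38.8 to 45.3 points for runs next to code 2. Other flanks and strata were not tried for this gap. Libraries could not be paired because each line has 1 S-phase library. Depth per cell is unknown, so how depth limits code 0 could not be measured.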
